A study of Homo sapiens with 6 samples.

Results

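CTCF binding was described at 10 genes that WNT signalling switches on or that restrain it: LGR5, RNF43, ZNRF3, AXIN2, NKD1, TCF7, LEF1, ASCL2, CCND1 and EPHB2. The genes were chosen by name. Every CTCF peak within the gene body or 10 kb on either side was taken, and peaks that overlapped between lists were joined into regions. This gave 32 of the 60235 merged regions of the genome, and 73 with 50 kb on either side. All 10 genes had at least 1 region. The cells are HCT-116, a human colon cancer line with an activating mutation of the beta-catenin gene. The populations were wild-type cells (WT) and the clones D3 and E4, both labelled as carrying a CTCF mutation whose position is not named. All were grown without treatment. Of 6 libraries, 3 were made with an antibody against CTCF, 1 per population, and 3 without antibody, which were not analysed here. Each clone is a single clone with 1 library, so a difference from WT has no replicate check and cannot be told apart from a difference between clones or between libraries. Peak lists do not measure expression, so the colon identity of the cells was not checked with marker genes.

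WNT ligands bind Frizzled and LRP receptors and stop the destruction complex, built on APC and AXIN proteins, from degrading beta-catenin. Beta-catenin then enters the nucleus and joins TCF and LEF factors on DNA. Many of the genes it switches on feed back on the pathway, and in the intestinal crypt they mark and maintain stem cells. CTCF is a DNA-binding zinc-finger protein found at insulators, where it halts cohesin and thereby sets the ends of chromatin loops.

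The list of D3 held 57935 peaks, that of E4 39434 and that of WT 38645, and read depth was not given in the files. Strength is therefore given as the percentile of a peak's −log10 q within its own list, where 100 is the strongest. The list of D3 holds many weak peaks that the others lack, which lifts the percentile of its stronger peaks. Regions called in all 3 lists were for this reason also ranked among the 32495 such regions of the genome, where the lists have equal length. Fold enrichment over the peak caller's background is the authors' value for each peak and is comparable only within a list.

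RNF43 had a peak over its start site in all 3 lists, so the sequence before that start is shown. The promoter table used here held 4 of the 10 genes, and the other 3 stand beside it as genes whose start site no region spanned. The 250 bases before the outermost listed start are given 5′ to 3′ from RefSeq on GRCh38.p14, while all peak positions are on hg19. No coordinates were converted, so the listed starts were not matched by position to those used for the peaks. Capitals mark CCCTC, the letters CTCF is named after, and GAGGG, the same letters on the other strand.
RNF43, chr17:58417535-58417784, minus strand: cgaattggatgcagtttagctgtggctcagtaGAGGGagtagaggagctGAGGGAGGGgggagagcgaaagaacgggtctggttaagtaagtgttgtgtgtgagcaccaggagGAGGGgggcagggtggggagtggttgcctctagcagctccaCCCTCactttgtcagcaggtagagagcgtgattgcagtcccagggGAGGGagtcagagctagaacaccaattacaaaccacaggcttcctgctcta
TCF7, chr5:134115363-134115612, plus strand: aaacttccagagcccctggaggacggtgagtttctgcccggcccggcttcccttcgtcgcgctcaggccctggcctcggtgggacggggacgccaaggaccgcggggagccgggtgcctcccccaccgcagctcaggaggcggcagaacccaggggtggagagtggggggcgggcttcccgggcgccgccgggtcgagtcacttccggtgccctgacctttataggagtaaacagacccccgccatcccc
LEF1, chr4:108166302-108166551, minus strand: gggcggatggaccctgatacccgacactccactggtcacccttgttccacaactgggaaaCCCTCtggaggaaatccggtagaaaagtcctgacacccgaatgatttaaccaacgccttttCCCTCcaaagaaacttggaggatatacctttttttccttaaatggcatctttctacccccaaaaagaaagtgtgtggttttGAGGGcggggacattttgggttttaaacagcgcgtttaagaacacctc
EPHB2, chr1:22710588-22710837, plus strand: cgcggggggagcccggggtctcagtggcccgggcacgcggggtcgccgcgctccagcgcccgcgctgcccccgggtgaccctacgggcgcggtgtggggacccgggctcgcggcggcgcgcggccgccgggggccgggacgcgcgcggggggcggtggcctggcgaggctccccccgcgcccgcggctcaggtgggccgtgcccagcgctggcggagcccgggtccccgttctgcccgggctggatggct
RNF43 held 6 CCCTC matches on either strand, of which 1 pair overlaps, LEF1 held 3, and TCF7 and EPHB2 held 0. Of all 35116 promoter stretches of this length, 66.6% held at least 1 match and 2.15% held 6 or more. The pattern AGNNGGC, the centre of the CTCF consensus, was counted on both strands and had 2 matches, which overlap, in TCF7 and 0 in the other genes. It occurred in 57.5% of all. The TCF and LEF patterns ATCAAAG and TTCAAAG also had 0 matches in the 4, again on both strands, and occurred in 2.26% and 3.80% of all. GC content was 56.0% in RNF43, 70.8% in TCF7, 47.6% in LEF1 and 84.8% in EPHB2, beside a median of 58.0%. These matches describe letters in a window and not binding.

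**Figure D1:**
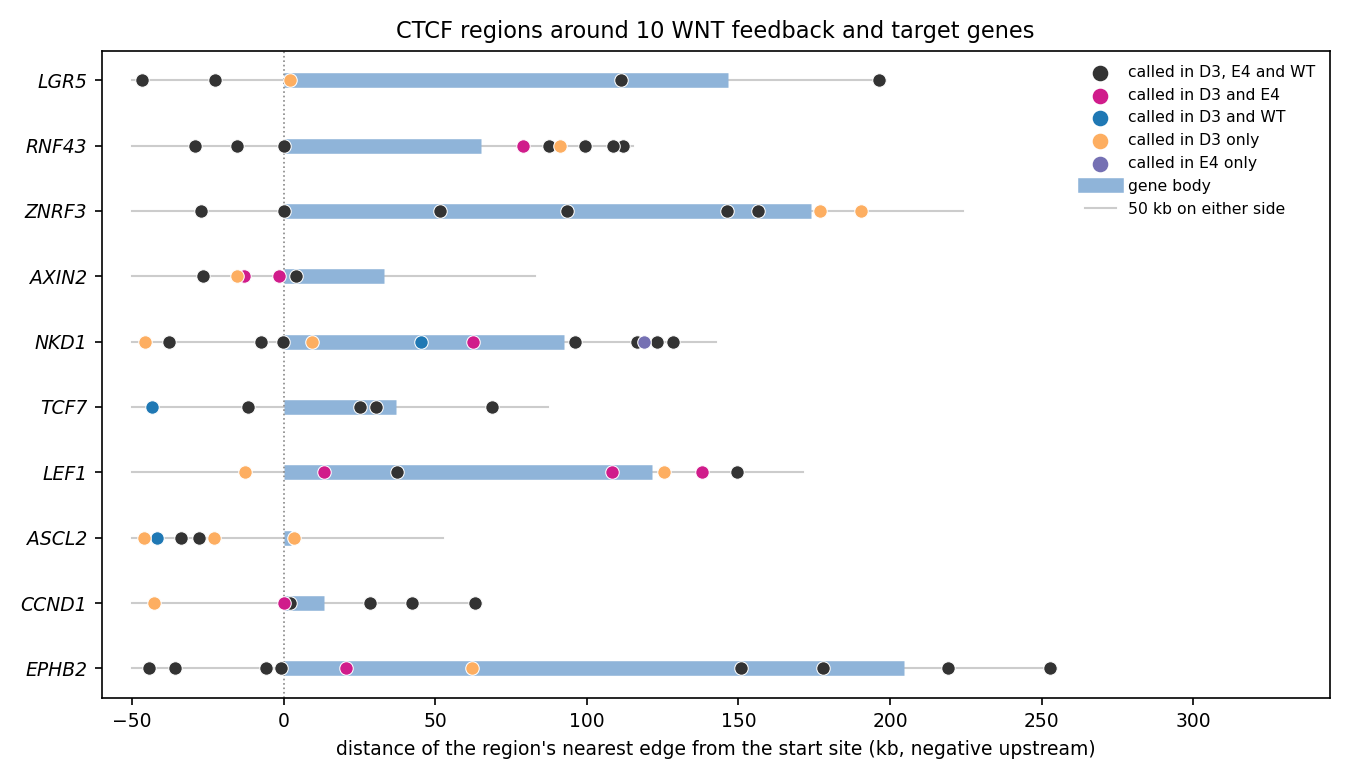
CTCF regions around the 10 genes, placed by the distance in kb between the start site and the region's nearest edge. Each dot is 1 region within 50 kb of the gene, coloured by the lists that called it, and blue bars are gene bodies. RNF43, ZNRF3, NKD1 and EPHB2 have a region called in all 3 lists at or within 1 kb of the start.

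Every WT peak at the 10 genes was also called in D3, and 1 WT peak, inside NKD1, was absent from E4. Of the 32 regions, 19 (59.4%, exact 95% interval 40.6 to 76.3, counting error only) were called in all 3 lists, beside 53.9% of all regions of the genome. D3 and E4 without WT called 6 regions (18.8%, background 9.31%), D3 alone called 6 (18.8%, background 26.1%) and D3 with WT called 1 (background 6.62%). None was called in WT alone, in E4 alone or in E4 with WT. Genome shares of these kinds were not counted, so their absence says nothing particular about the 10 genes. D3 overlapped 20 of 20 WT peaks (background 95.9%) and E4 overlapped 19 of 20 (background 85.7%). With so few peaks the interval for E4, 75.1% to 99.9%, holds the background share. The overlap depends on list length. At equal list length, 38645 peaks in each, D3 overlapped 19 of 20 and E4 18 of 20. Requiring a −log10 q of at least 5, which 67.5% of D3, 65.9% of E4 and 53% of WT peaks reached, left 11 regions called in all lists. Requiring each list to cover 50% of the region left 10. Genome shares were not counted at equal list length or under these stricter rules. Whether the falls are particular to the 10 genes was therefore not tested.

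By place, 5 regions lay within 1 kb of a start site, 20 elsewhere in a gene body, 3 upstream and 4 downstream. Those at start sites belonged to RNF43, ZNRF3, NKD1, EPHB2 and CCND1, and all 3 lists called 4 of these 5. Inside genes all 3 lists called 12 of 20. At 27 other WNT pathway genes all 3 lists called 12 of 15 regions at start sites and 29 of 52 inside genes. Genome shares by place were not counted, so these counts describe the 10 genes without setting them apart. The windows held 29.4 regions per Mb, against 33.9 in the windows of those pathway genes and 19.7 over the genome up to the last region of each chromosome.

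The receptor genes come first. LGR5 encodes the R-spondin receptor that marks crypt stem cells. Its main region, chr12:71944910-71946331, lay 111 kb inside the gene and had a fold of 6.67 (D3), 4.65 (E4) and 5.24 (WT). These peaks had percentiles of 56.4, 24.0 and 45.8, so that E4 ranked lowest. Among shared regions WT stood 10.8 points above D3 and 23.5 points above E4. The peaks were 1112, 1046 and 534 bp wide. A second region, chr12:71835704-71837042, began 2.15 kb after the start and was called in D3 only, at the 13.0th percentile, although it was 1339 bp wide.

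RNF43 is a membrane ubiquitin ligase that removes Frizzled receptors and is itself switched on by WNT. It had a single region in its window, chr17:56494355-56495786, which spanned the start site. The fold was 15.5 in D3, 10.3 in E4 and 8.95 in WT, or percentiles 92.8, 80.7 and 88.1. From the top of each list the peak was number 4149 in D3, 7615 in E4 and 4595 in WT. It was the strongest of the 5 regions at start sites in every list. Among shared regions it stood 1.33 points lower in WT than in D3 and 9.27 points higher in WT than in E4, and 91.7% and 56.4% of all shared regions differed at least as much.

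ZNRF3, the paralogue of RNF43 with the same activity on receptors, had 6 regions. Its region near the start, chr22:29279869-29280591, had a fold of 3.26 (D3), 3.69 (E4) and 5.72 (WT). These values corresponded to percentiles 15.6, 20.5 and 54.1, so WT stood above both clones. Among shared regions WT was higher than D3 by 45.7 points and than E4 by 35.5 points. Differences of that size or larger occurred in 2.12% and 7.48% of all shared regions. For each clone this was the largest difference of the 19 shared regions at the 10 genes. Both differences use the same WT peak. The −log10 q was 2.82 in D3, 3.29 in E4 and 5.79 in WT, so neither clone held this peak once a −log10 q of 5 was required. At equal list length, 38645 peaks in each, D3 lacked it and E4 kept it.

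Inside ZNRF3 4 regions were called in all 3 lists. The strongest, chr22:29436031-29437470, lay 156 kb after the start at percentiles 77.1 (D3), 85.9 (E4) and 79.3 (WT). Its neighbour chr22:29425982-29428186 stood at percentiles 50.1, 51.8 and 38.5 and was 1774 bp wide in D3, 2166 bp in E4 and 463 bp in WT. Among shared regions this neighbour stood at 18.8 in D3, 42.3 in E4 and 29.9 in WT, so that D3 was lowest. The other 2, chr22:29331204-29332401 and chr22:29373134-29374150, stood between the 12th and 27.4th percentile in E4 and WT and at the 35.6th and 54.0th in D3. Among shared regions they stood at 6.71 and 23.6 in D3, 7.21 and 7.93 in E4, and 6.15 and 18.9 in WT. The sixth region, chr22:29456364-29456690, was downstream and called in D3 only, at the 5.91st percentile.

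Of the intracellular brakes, AXIN2 is the WNT-induced scaffold of the destruction complex. Its region chr17:63550507-63553610, 4.16 kb inside the gene, was strong in every list, with a fold of 11 (D3), 8.22 (E4) and 8.04 (WT). The percentiles were 85.9, 81.2 and 87.4. This was the widest D3 peak within 10 kb of the genes at 3104 bp, against 1419 bp in E4 and 888 bp in WT. A weak region 1.52 kb before the start, chr17:63559290-63559910, was called in D3 and E4 at the 18.4th and 10.5th percentile and not in WT.

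NKD1 encodes a WNT-induced protein that binds Dishevelled and dampens the signal. It had 6 regions, of which 3 were called in all lists. The region ending 198 bp before the start, chr16:50579672-50582043, stood at percentiles 46.9 (D3), 29.8 (E4) and 36.3 (WT). It was 2372 bp wide in D3, 463 bp in E4 and 749 bp in WT. The upstream region chr16:50573988-50574811 stood at percentiles 36.3, 23.3 and 8.81, and the downstream region chr16:50678427-50679250 at 59.2, 44.2 and 54.9. Ranked among shared regions, WT was 12.4 points above D3 and 8.65 above E4 at the region near the start. Downstream WT was 16.9 and 13.8 points above them, and upstream 3.04 and 9.46 points below. D3's higher percentile near the start and downstream thus did not hold on this ranking.

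The peak that E4 lacked lay 45.2 kb inside NKD1, at chr16:50627442-50628181. Its fold was 6.92 in D3 and 3.29 in WT, at the 51.7th and 4.35th percentile. The WT peak was thus near the bottom of its list and 265 bp wide, while the D3 peak was near the middle of its own. Of the remaining NKD1 regions, chr16:50644787-50645852 was called in D3 and E4 at the 22.8th and 16.2nd percentile, and chr16:50591743-50592164 in D3 only at the 14.8th.

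**Figure D2:**
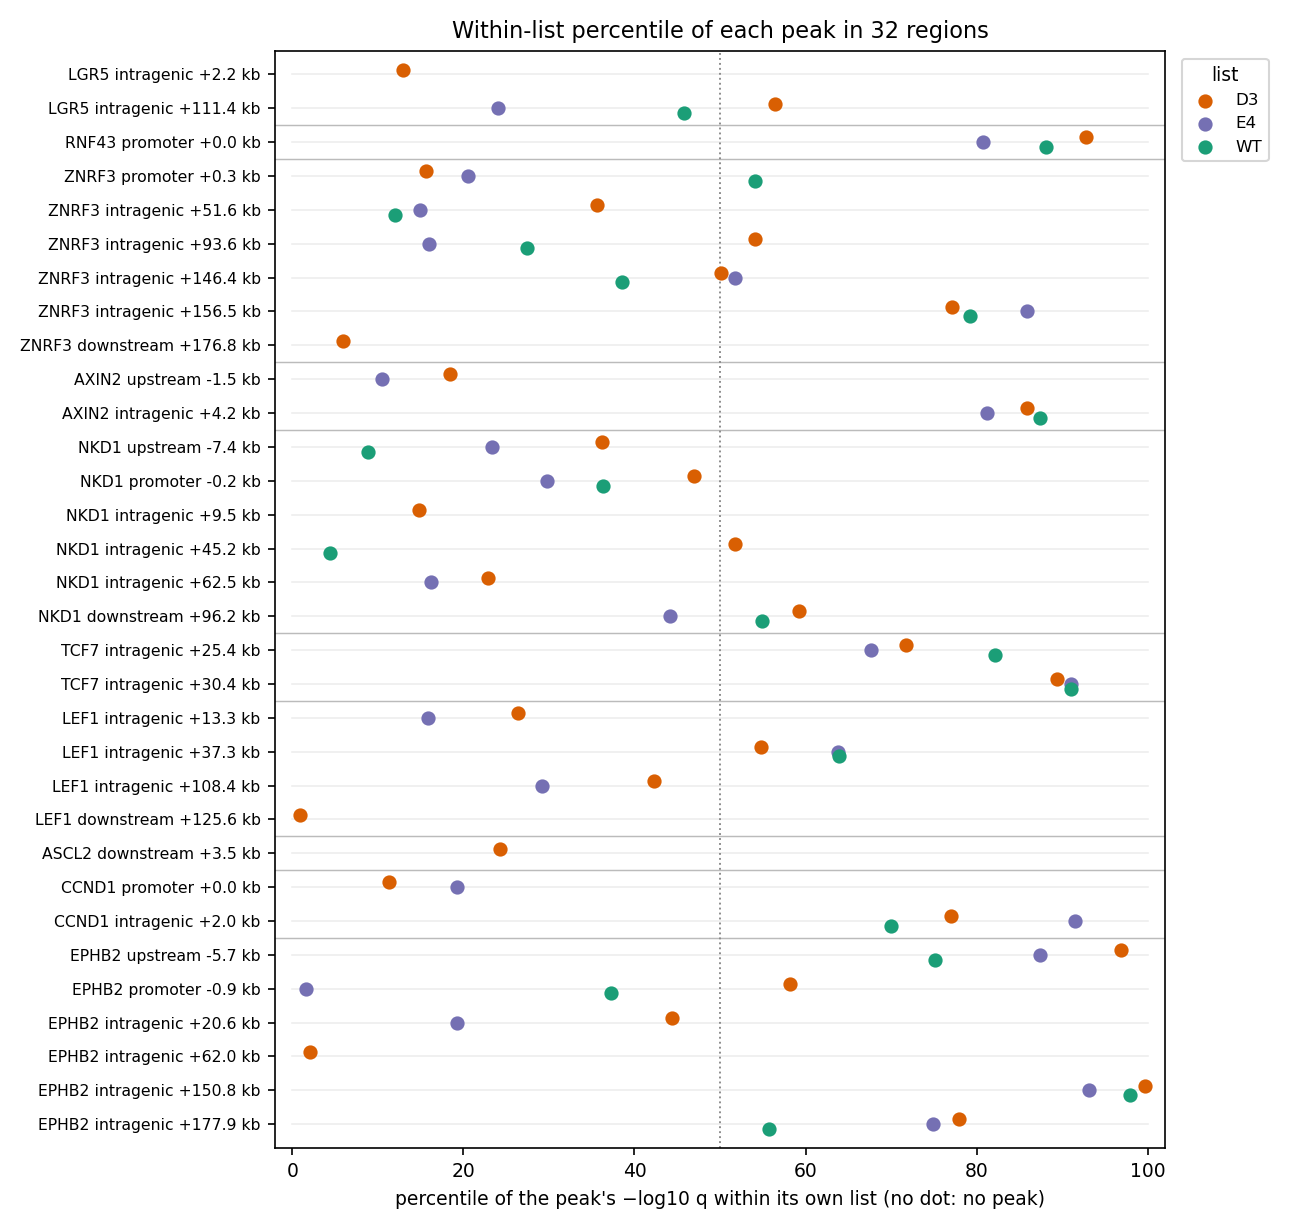
Percentile of each peak's −log10 q within its own list at the 32 regions, grouped by gene and labelled with place and distance from the start site. A missing dot means no peak, and the dotted line is the list median. RNF43, the intragenic AXIN2 and CCND1 regions, both TCF7 regions, the LEF1 region called in all lists, 1 ZNRF3 region and 3 EPHB2 regions stand above the median in every list.

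The nuclear factors TCF7 and LEF1 are related DNA-binding partners of beta-catenin, and no region lay within 10 kb of either start. TCF7 had 2 regions in the distal part of the gene, both called in all lists. At chr5:133480815-133482412 the fold was 13.5 in D3, 13.6 in E4 and 9.25 in WT, or percentiles 89.4, 91.1 and 91.0. At chr5:133475763-133477325 the fold was 7.84, 8.41 and 7.91, and the percentiles were 71.8, 67.6 and 82.1. Ranked among shared regions, WT was 8.21 points above D3 and 0.172 above E4 at the former. At the latter it was 28.5 points above D3 and 18.0 points above E4, and 13.1% and 31.4% of shared regions differed as much.

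LEF1 had 4 regions and 1 WT peak. The region with that peak, chr4:109051783-109052798, lay 37.3 kb inside the gene and stood at percentiles 54.7 (D3), 63.8 (E4) and 63.9 (WT). Among shared regions WT was 33.3 points above D3 and 1.48 points above E4. The other regions inside the gene, chr4:108981116-108981719 and chr4:109076375-109076861, were called in D3 at the 42.3rd and 26.4th percentile and in E4 at the 29.2nd and 15.8th, and not in WT. The region downstream, chr4:108964146-108964519, was in D3 only, at the 0.907th percentile.

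ASCL2, the transcription factor of intestinal stem cells, had the fewest peaks. A single D3 peak of 504 bp, chr11:2288210-2288713, lay downstream of the gene at the 24.3rd percentile, with no peak in E4 or WT. Within 50 kb there were 5 more regions, all upstream, and 2 of them were called in all lists. These were chr11:2320139-2320986, at percentiles 74.2 (D3), 72.0 (E4) and 85.1 (WT), and chr11:2326063-2327798, at 92.7, 79.7 and 82.8.

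The remaining targets are CCND1, which encodes the cell cycle protein cyclin D1, and EPHB2, a receptor that positions cells along the crypt. CCND1 had a strong region 1.98 kb inside the gene, chr11:69457830-69459508. Its fold was 8.19 in D3, 10.8 in E4 and 6.26 in WT, or percentiles 77.0, 91.5 and 70.0. E4 stood highest there, 24.8 points above WT among shared regions, a size reached by 18.9% of them. On that ranking WT stood 5.43 points above D3, the reverse of the order within the lists, and 71.2% differed as much. A weaker region over the start site itself, chr11:69455622-69456264, was called in D3 at the 11.4th and in E4 at the 19.3rd percentile and not in WT.

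Within 10 kb of the genes, EPHB2 held the strongest peak in every list. It lay 151 kb inside the gene at chr1:23188105-23189563, with a fold of 23.9 (D3), 10.8 (E4) and 10.4 (WT). Its rank from the top was 214 in D3, 2687 in E4 and 813 in WT. The regions chr1:23030614-23031606, 5.72 kb upstream, and chr1:23215252-23216715, 178 kb inside, had percentiles of 96.9 and 78 in D3, 87.4 and 74.9 in E4, and 75.1 and 55.7 in WT. At both, WT ranked lower than either clone among shared regions, by 23.8 and 12.6 points for D3 and by 14 and 21.2 points for E4.

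Near the EPHB2 start the clones differed. The region chr1:23035308-23036438, which ended 893 bp upstream, had a fold of 6.89 (D3), 3.20 (E4) and 4.69 (WT). The percentiles were 58.2, 1.63 and 37.3, so this was among the weakest peaks of the E4 list. Among shared regions WT was 28.3 points above E4, which 14.3% of them reached, and 0.626 points below D3. At equal list length E4 no longer held this peak. Inside the gene chr1:23057977-23059046 was called in D3 and E4 at the 44.3rd and 19.3rd percentile, and chr1:23099331-23099679 in D3 only at the 2.02nd.

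At the 19 shared regions the clones lay on both sides of WT. WT ranked above D3 in 11 and below in 8, and above E4 in 12 and below in 7, beside 50.1% and 49.0% of all shared regions with WT higher. The median difference was 8.21 points for D3 (range −23.8 to 45.7) and 5.76 points for E4 (−24.8 to 35.5). Over all shared regions the medians were 0.0215 and −0.271, and the quartiles were −10.9 and 11 for D3 and −11.4 and 10.9 for E4. Differences over 25 points occurred in 3 of 19 regions for D3 (15.8%, background 17.6%) and in 2 of 19 for E4 (10.5%, background 18.6%). Those 3 were at ZNRF3, TCF7 and LEF1, and those 2 at ZNRF3 and EPHB2. Both differences use the same WT library, so they are not independent. The median for E4 was 1.5 points with 50 kb, 1.62 at equal list length and 0.299 when a −log10 q of at least 5 was required. It was 4.62 with 50% coverage and 9.45 when regions were ranked by fold. For D3 the values in the same order were 5.71, 8.72, 5.02, 9.88 and 10.2.

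**Figure D3:**
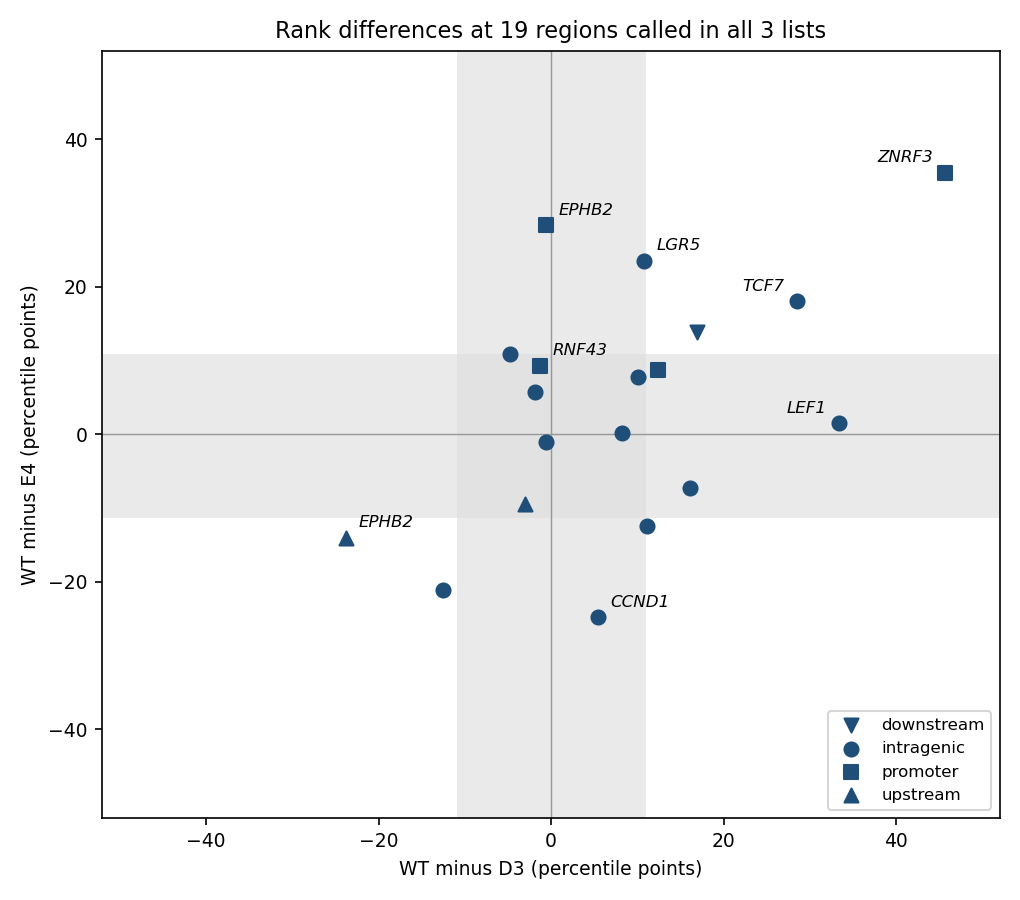
Difference in percentile points between WT and D3 (horizontal) and between WT and E4 (vertical) at the 19 regions called in all 3 lists, ranked among all shared regions. Grey bands run between the quartiles of all shared regions, and the ZNRF3 region near the start lies farthest out, at 45.7 and 35.5 points.

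Regions missing from WT were weak where they were called. The 6 regions of D3 and E4 alone, at AXIN2, CCND1, NKD1, LEF1 (2) and EPHB2, had a median percentile of 24.6 in D3 and 17.7 in E4, beside 34.5 and 15.3 for all regions of this kind. The 6 regions of D3 alone, 1 each at LGR5, ASCL2, NKD1, ZNRF3, LEF1 and EPHB2, had a median of 9.44 in D3 (0.907 to 24.3), beside 17.2 for all D3-only regions. At equal list length the D3 list begins at its 33.3rd percentile. None of these 6 was then called in any list, and of the other 6, 4 were left in E4 only and 2 in both clones. The 19 regions called in all lists had a median percentile of 59.2 (D3), 63.8 (E4) and 55.7 (WT), beside 71.5, 58.4 and 57.0 for all shared regions. Over every peak at the 10 genes the median was 48.5 in D3 (32 peaks), 29.8 in E4 (25) and 55.3 in WT (20). With 50 kb the medians were 55.0 in D3, 61.2 in E4 and 67.9 in WT. Peaks with a −log10 q of at least 5 were ranked anew among such peaks of their list. On that other scale the medians were 38.1 in D3, 71.1 in E4 and 57.0 in WT.

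Peaks of D3 were wider than those of WT at nearly every shared region, as across the genome. Of the 19 shared regions, 18 were wider in D3 than in WT (94.7%, background 90.9%) and 12 were wider in E4 (63.2%, background 67.5%). The exception for D3 was the ZNRF3 region near the start. The median width was 1265 bp in D3, 981 bp in E4 and 765 bp in WT, beside 1115, 818 and 681 bp over all shared regions. The ratio of D3 to WT had a median of 1.52, beside 1.60 for all shared regions, and reached 3.83 at the 146 kb region of ZNRF3, 3.50 at AXIN2 and 0.810 at the ZNRF3 start. The ratio of E4 to WT had a median of 1.15, beside 1.17, and ranged from 0.396 to 4.68, both within ZNRF3.

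**Figure D4:**
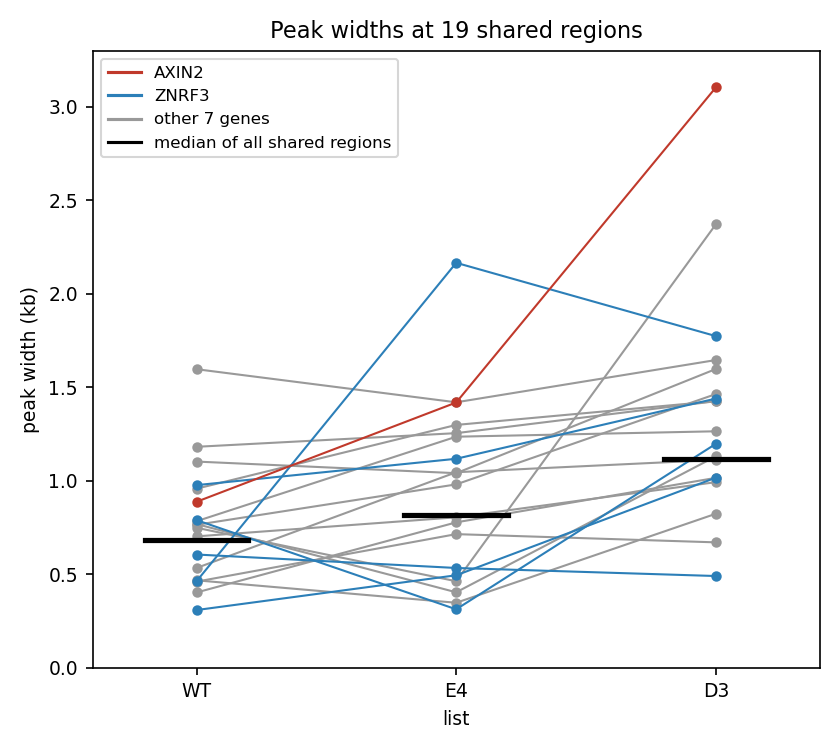
Peak width in kb at the 19 shared regions in WT, E4 and D3, 1 line per region, with black bars at the median of all shared regions of the genome. AXIN2 is widest in D3 at 3104 bp, and 1 ZNRF3 region is widest in E4 at 2166 bp.

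With 50 kb on either side the 10 genes held 73 regions. All lists called 46 of them (63.0%, background 53.9%), and D3 and E4 without WT called 9 (12.3%, background 9.31%). D3 and WT called 3 (4.11%, background 6.62%) and D3 alone 14 (19.2%, background 26.1%). E4 alone called 1, a kind whose genome share was not counted. Of 49 WT peaks, D3 had all 49 (background 95.9%) and E4 had 46 (93.9%, background 85.7%). The interval for E4, 83.1% to 98.7%, holds its background share. The 3 that E4 lacked were the one inside NKD1, chr5:133406550-133407144 upstream of TCF7 (24.5th percentile of WT) and chr11:2333908-2334630 upstream of ASCL2 (20.5th). NKD1 had the most regions, 12, followed by EPHB2 with 10 and RNF43 with 9. RNF43 gained 8 regions over the smaller window, 6 of them called in all lists, and its neighbours in RefSeq are SUPT4H1 and HSF5. TCF7 gained chr5:133436838-133438777, 11.6 kb before its start, at percentiles 97.8 (D3), 93.4 (E4) and 92.1 (WT). CCND1 gained 3 regions downstream that all lists called. Of these chr11:69498129-69501424, with percentiles 93.2, 91.7 and 98.8, was strongest in D3 and WT, and chr11:69484342-69485840, with 91.5, 92.7 and 81.7, in E4. LGR5 gained 3 regions called in all lists and none of another kind.

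The 9 regions of D3 and E4 included 3 beyond 10 kb, chr17:63570876-63571307 upstream of AXIN2, chr17:56415611-56416132 downstream of RNF43 and chr4:108951023-108952025 downstream of LEF1. Their percentiles in D3 were 28.9, 40.0 and 46.8, and in E4 32.1, 9.24 and 31.0. The 8 further regions of D3 only lay around AXIN2, ASCL2 (2), CCND1, NKD1, RNF43, ZNRF3 and LEF1, and the strongest, chr4:109102838-109103269 upstream of LEF1, stood at the 37.3rd percentile. The E4-only region, chr16:50701197-50701873, lay downstream of NKD1 at the 11.4th percentile.

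For comparison, 27 other genes of the pathway held 87 regions within 10 kb, of which 53 (60.9%) were called in all lists. Both clones overlapped 57 of 62 WT peaks (91.9%, background 85.4%). The genes with most WT peaks were TCF7L1, a TCF factor, with 8 of 8 in both clones, BTRC, a subunit of the ligase that marks beta-catenin for degradation, with 5 of 6, and BCL9L, a beta-catenin co-activator, with 5 of 5. WT peaks absent from a clone were weak, at the 6.83rd to 22.8th percentile of WT. They lay at BTRC and GSK3B, a kinase of the destruction complex, where both clones lacked 1, and at the co-receptor gene LRP5 and the targets SP5 and EPHB3, where E4 lacked 1. LRP6, the other co-receptor gene, and the beta-catenin gene CTNNB1 had no peak in any list. Regions of D3 and E4 without WT made up 4 of the 87 (4.6%, exact interval 1.27 to 11.4). At the 10 genes they made up 6 of 32 (18.8%, exact interval 7.21 to 36.4). Both intervals hold the background share of 9.31%. They treat regions as independent, although 2 of the 6 lay in LEF1, and they are wide. Whether either set of genes differs from the genome was therefore not tested.

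**Figure D5:**
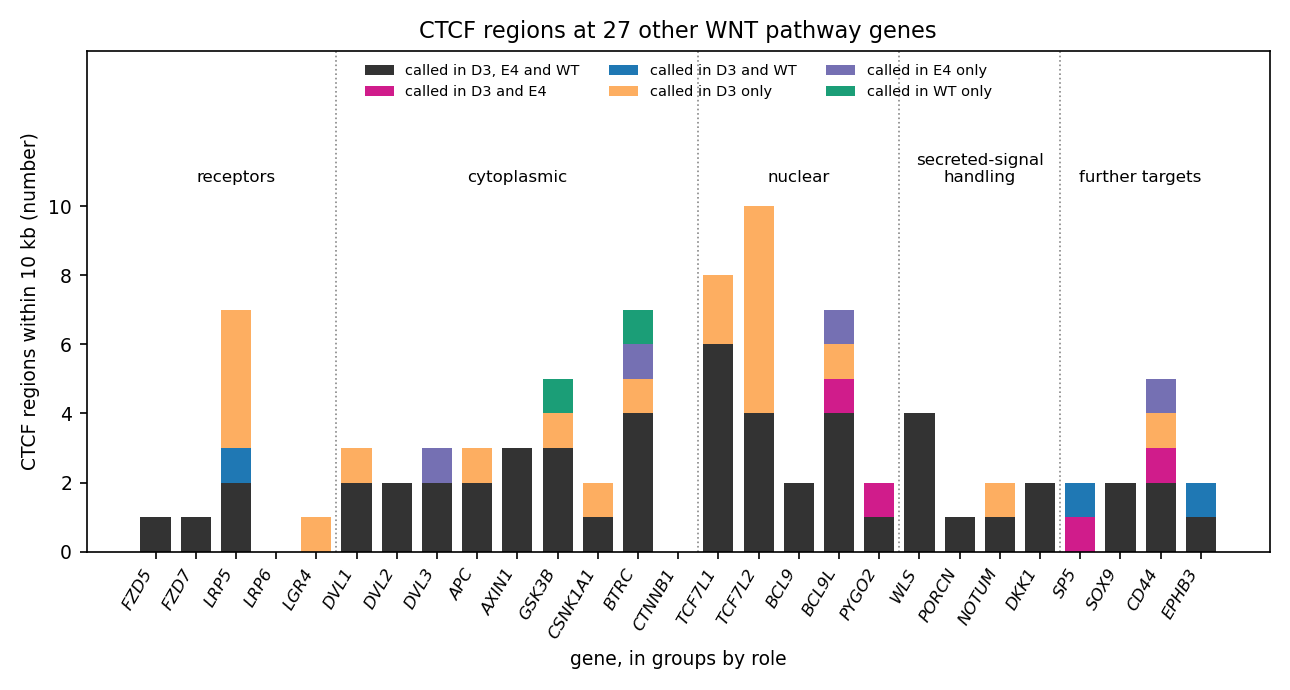
Number of CTCF regions within 10 kb of 27 other WNT pathway genes, stacked by the lists that called them and grouped by role. TCF7L2 has the most regions, 10, of which 6 were called in D3 only, and LRP6 and CTNNB1 have none.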

How the data were processed

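CTCF chromatin immunoprecipitation libraries of WT, D3 and E4 were used, 1 each. Per the submitters' processing notes, CASAVA 1.8.2, Picard 2.23.1, bedtools 2.29.2, MACS2 2.2.7.1 and build hg19 were used, with no role or order. The aligner and settings of the peak calls are not given in the sources used here. Per library, the authors deposited 1 broad peak list, each peak with a fold (a ratio over background), −log10 p and −log10 q. The deposited score column was not used. Depth is unknown.

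Peaks sharing at least 1 bp were merged across lists, and the strongest peak of a list stood for a region. A percentile is the share of a list's peaks with a lower −log10 q. Windows for the genes come from general knowledge of hg19, with 1 start site per gene at its 5′ end, so exon, intron and UTR were not assigned and distances depend on these windows. A RefSeq table of GRCh38.p14 served only for names and neighbours: 37 of 37 genes matched in symbol and chromosome, and their order matched on 9 of 9 chromosomes. Calculations used Python 3.11.15 with pandas 2.3.3, and merging, overlap and ranking were tested on simulated data. Intervals are exact binomial (95%) and cover counting error only.

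The genes, lists and alternatives were chosen with earlier results of these data known. Named were all regions of the 10 genes within 10 kb and regions within 50 kb not called in all 3 lists. Of the D3-only regions beyond 10 kb, however, only the strongest was named, and the others were counted by gene. Pathway genes were named where WT peaks were missing from a clone, or for having no peak or most WT peaks. Strong regions of all 3 lists beyond 10 kb, TCF7L2 and the 25-point and 10-point limits were picked after values were seen. Alternatives were 50 kb windows, a −log10 q of 5 or more, equal list length, 50% coverage, merging within 1 kb, ranking by fold, and start sites widened to 2.5 kb. No p-values were computed.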

Additional observations from a re-analysis of the deposited data

Results flagged for a closer look

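The ZNRF3 region chr22:29425982-29428186 was singled out because D3 was below and E4 above WT by over 10 points each among shared regions. D3 stood at 18.8, E4 at 42.3 and WT at 29.9, so that D3 minus E4 was −23.5 points. Across all shared regions 4.68% met this criterion, and at the 10 genes it was 1 of 19. With 1 library per population the difference was not tested.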

How the results depend on the processing

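Of 61 alternative values, 56 met the rule for staying near the main value, 5 moved and 0 moved with a change of sign. The rule was a share or median inside its interval, or a count within a factor of 1.5. With 50 kb the regions numbered 73 and those called in all 3 lists 46, since the windows are longer. With a −log10 q of 5 or more, 11 of 22 regions were called in all 3 lists. Each clone then overlapped 11 of 12 WT peaks of the 10 genes. At the other pathway genes both clones overlapped 32 of 32 WT peaks (100%). The share of all WT peaks under this rule was not counted. With 50% coverage, 10 regions were called in all 3 lists, and this rule depends on peak width. Merging within 1 kb left the counts of regions as they were. Widening start sites to 2.5 kb raised the genes with a region there from 5 to 7. The E4 median percentile, 29.8, rose above the list median to 61.2 with 50 kb and to 63.8 with 50% coverage. It was 71.1 with a −log10 q of 5 or more, where peaks were ranked on another scale. These 3 values met the rule only because the interval of a median over 25 peaks is wide. The E4 median was therefore not stable. No paired analysis was possible because each group has 1 library, and for the same reason none could be left out. Without read depth, the absence of a weak peak could not be told from too few reads.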
